A study of Mus musculus with 4 samples.

Results

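Pgc, Pga5 and Ctse, the genes for pepsinogen C, pepsinogen A5 and cathepsin E, were followed across the epithelial cell types of the mouse stomach. These 3 genes were chosen by name, out of 17712 genes in the count matrix, and all 3 had counts in all 4 libraries. The cells came from female Rosa26iH2b-GFP mice aged 14 weeks, which received doxycycline for 4 weeks and were examined 6 weeks after its withdrawal. In this strain a constitutively expressed Tet-on 3G transactivator at Rosa26 switches on a histone H2b-GFP fusion while doxycycline is given, so that cells dividing afterwards dilute the label. GFP+ cells were Epcam-positive cells that still carried GFP, and Epcam+ cells (Ep+ in the labels) were Epcam-positive cells taken without regard to GFP, so that some of them may carry it too. Each sort gave 2 single-cell libraries. Cells bearing Cd45 or Cd31 were sorted away from both, and every mouse had received doxycycline. Cells of a pair of mice were combined, and nothing shows that the 2 libraries of a sort came from separate animals, so p-values measure only the spread between libraries, which may be technical.

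Pepsinogens are inactive precursors of the gastric aspartic proteases called pepsins. They are stored in the granules of chief cells at the base of the gland, and on release into the acid of the stomach they cut off their own propeptide. Cathepsin E is a related aspartic protease that stays inside the cell, largely in endosomes, and is known from the gastric epithelium. Mucous neck cells, which make the mucin Muc6, have been described as precursors of chief cells. Pit cells line the surface and secrete Muc5ac, Gkn1 and Tff1.

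All 3 genes code for enzymes of the pepsin fold, in which a pair of aspartates, each in the triplet aspartate-threonine-glycine, sits in the active site. On GRCm38, Pgc lies on the plus strand at chr17:47726842-47734482 (9 exons), Pga5 on the minus strand at chr19:10668956-10678071 (9 exons) and Ctse on the plus strand at chr1:131638306-131675505 (10 exons). No annotated gene overlaps any of them. The coding sequences matched at 60.9% of aligned bases between Pga5 and Pgc, 61.5% between Ctse and Pgc and 61.2% between Ctse and Pga5. The longest run of bases that 2 of the transcripts shared was 14, 15 and 16 bases for the same pairs. The 30 coding bases around each active-site triplet are shown because all 3 genes carry this triplet at 2 sites, with the 3 codons of the triplet in capitals:
Pgc, first site (aspartate at codon 94): gtccttttcGACACTGGCtcctccaacctg
Pga5, first site (codon 92): gttgtcttgGATACTGGAtcttcagtcctg
Ctse, first site (codon 97): gtcatctttGACACCGGTtcatccaacctc
Pgc, second site (codon 280): ggcattgtaGACACAGGCacctctctgctc
Pga5, second site (codon 275): ggtattatgGACACAGGGacctccttgctg
Ctse, second site (codon 282): gccatagtgGACACAGGGacctctctcatc

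The files held 4449 cells, with 467 and 444 in the GFP+ libraries and 1642 and 1896 in the Epcam+ libraries. Totals were 35571141 and 47222033 unique molecular identifiers (UMIs, each counting 1 captured transcript) for GFP+, against 73876885 and 79455225 for Epcam+. GFP+ 2 stood apart in depth, with a median of 104840 UMIs per cell against 31735 to 45119 in the other libraries, and had the lowest median share of mitochondrial UMIs at 1.69%. Scrublet called 74 doublets, 37 of them in cluster 5, and 4 barcodes occurred in 2 libraries. The deposited clusters were named as in the study and checked against marker lists. Summed chief cell markers ran from 362400 to 668108 CPM (counts-per-million, here of UMIs) in clusters 1 and 5, pit cell markers from 104843 to 209931 CPM in cluster 2 and endocrine cell markers from 73109 to 159162 CPM in clusters 6 and 7. Endocrine cluster 7 also held 159406 to 341309 CPM of chief cell markers. Parietal cell markers ran from 6659 to 8543 CPM in cluster 8, and the dividing isthmus clusters 3 and 4 had 1917 to 5026 CPM of proliferation markers. Neck cell markers ran from 17352 to 50558 CPM in cluster 0, overlapping the 27566 to 36147 CPM of clusters 3 and 4. No parietal cell was found among 467 and 444 GFP+ cells, which allows a share of up to 0.642% and 0.676%. Levels below are such CPM, the UMIs of the gene scaled by the UMIs of all genes, both summed over the cells of a cluster in a library, for libraries with at least 20 cells. The clusters were made from the same cells and genes, so levels across clusters are a description without a test.

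Pgc, the pepsinogen of both chief clusters, was also among the main transcripts of neck cells. Its level was 195220 ± 18306 CPM in chief cells of cluster 1 (SD, n = 4 libraries), 183333 ± 22597 CPM in chief cells of cluster 5 and 153243 ± 33417 CPM in neck cells. By library, cluster 1 had 217820 and 197534 CPM in GFP+ and 192220 and 173307 CPM in Epcam+. Cluster 5 had 204375 and 201359 CPM in GFP+ against 164486 and 163112 CPM in Epcam+. Neck cells had 191682 and 169056 CPM in GFP+ against 134799 and 117434 CPM in Epcam+. The ranges of these 3 clusters overlapped, although cluster 5 exceeded neck cells in 4 of 4 libraries. Below them came endocrine cluster 7 (81929 ± 28859 CPM, n = 3), isthmus cluster 3 (37942 ± 1255 CPM, n = 2), isthmus cluster 4 (22739 ± 1820 CPM, n = 2) and parietal cells (14044 ± 2488 CPM, n = 2). Pit cells (8307 ± 2558 CPM, n = 4) and endocrine cluster 6 (3171 ± 2105 CPM, n = 4) were lowest, and their ranges overlapped. Because Pgc, Clps (colipase) and Pla2g1b (a secreted phospholipase) filled most of the UMIs of cluster 1, the share of one limits the others. With these 3 genes taken out of the total, the Pgc level came to 1104450 CPM for cluster 1 chief cells, 429518 CPM for those of cluster 5 and 186769 CPM for neck cells.

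**Figure D1:**
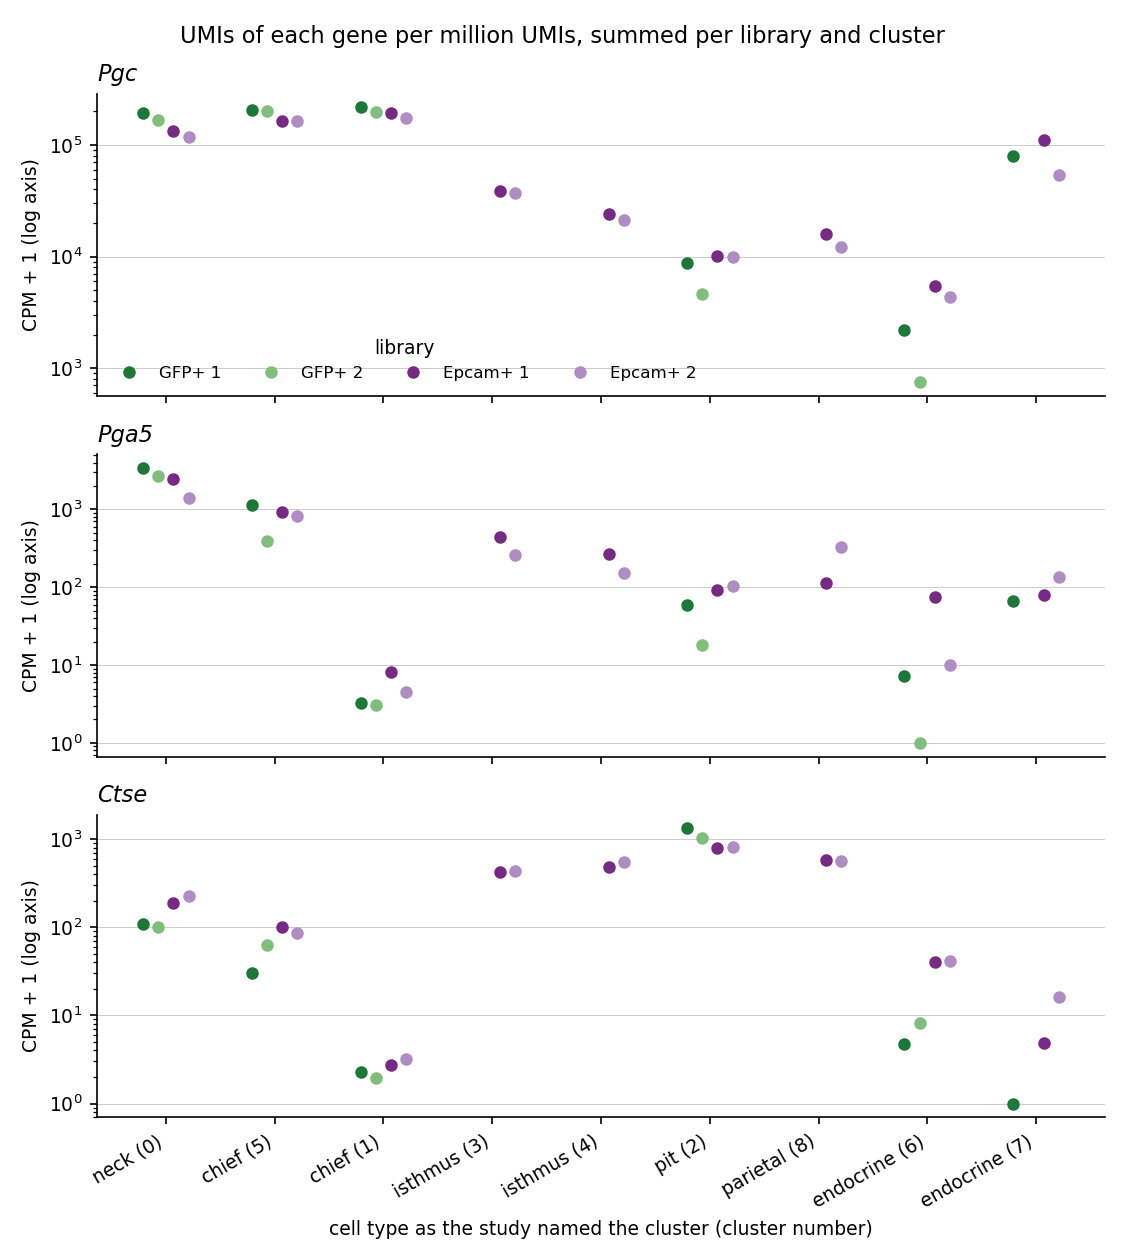
Level of Pgc, Pga5 and Ctse (CPM + 1, log axis) in each deposited cluster, 1 point per library with at least 20 cells, GFP+ libraries left of Epcam+ libraries. Pgc is highest in clusters 1, 5 and 0, Pga5 in cluster 0 (2502 ± 833 CPM) and Ctse in cluster 2 (991 ± 246 CPM), while cluster 1 averages 3.72 CPM of Pga5 and 1.54 CPM of Ctse.

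The Pgc level of endocrine cluster 7 rested on few cells. A single cell held 42.2% of its Pgc UMIs in GFP+ 1, and 33.4% and 52.0% in the Epcam+ libraries. The median cell there gave 0.108% of its UMIs to Pgc in GFP+ 1, against 0.0880% and 0.0798% in Epcam+, while the highest cell gave 17.1% to 23.3%. Scrublet placed 9 doublets in this cluster, and without called doublets the mean level was 14091 CPM. Endocrine cluster 6 was alike, with single cells holding 45.3% and 8.41% of the Pgc UMIs in GFP+ and 70.9% and 44.4% in Epcam+. In the median cell of cluster 6, Pgc took 0.0602% to 0.0828% of the UMIs in the 4 libraries. Every cell of these clusters had at least 1 Pgc UMI, so detection alone did not separate cell types for this gene.

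Pga5 had a narrower range of cell types. Neck cells held 2502 ± 833 CPM (SD, n = 4), 3.04 times the mean of cluster 5, the cluster next in order, and the ranges did not overlap. By library, neck cells had 3421 and 2711 CPM in GFP+ and 2465 and 1410 CPM in Epcam+. Chief cells of cluster 5 had 1137 and 391 CPM in GFP+ and 929 and 830 CPM in Epcam+. In the main chief cluster, cluster 1, the level was 2.25 and 2.11 CPM in GFP+ and 7.04 and 3.48 CPM in Epcam+, the lowest mean of all clusters (3.72 ± 2.30 CPM, n = 4). With Pgc, Clps and Pla2g1b taken out of the total, Pga5 came to 3059 CPM for neck cells, 1878 CPM for cluster 5, 21.0 CPM for cluster 1 and 23.0 CPM for cluster 6, so cluster 1 was lowest by little. In CPM of all UMIs, the 2 chief clusters overlapped in Pgc but lay apart in Pga5 in every library. With Pgc, Clps and Pla2g1b taken out of the total, the mean Pgc level of cluster 1 was far above that of cluster 5, as given above. Isthmus cluster 3 (352 ± 128 CPM), parietal cells (220 ± 154 CPM) and isthmus cluster 4 (208 ± 80.7 CPM, n = 2 each) overlapped one another, and cluster 3 also overlapped cluster 5. Cluster 7 (93.0 ± 36.5 CPM, n = 3), pit cells (67.4 ± 38.0 CPM) and cluster 6 (22.2 ± 34.4 CPM, n = 4 each) followed, each overlapping the next. The lowest library was GFP+ 2 in cluster 6, where 0 UMIs allow up to 4.38 CPM.

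Single cells weighed on Pga5 as well. In neck cells the highest cell held 10.9% and 18.9% of the Pga5 UMIs in GFP+, against 2.67% and 2.54% in Epcam+. The median neck cell gave 0.195% and 0.135% of its UMIs to Pga5 in GFP+ and 0.131% and 0.0936% in Epcam+, with single cells reaching 2.25% to 3.39%. In cluster 5 the highest cell held 24.5% and 16.3% of the UMIs in GFP+ and 30.9% and 16.1% in Epcam+. Most of the Pga5 of cluster 6 in Epcam+ 1 lay in 1 cell, with 82.7% of the UMIs. In cluster 7 a single cell held 61.4% in GFP+ 1 and 62.3% and 62.2% in Epcam+, and without it the level was 28.3 CPM in GFP+ 1 and 29.9 and 53.1 CPM in Epcam+. In cluster 1 a single cell held 62.7% in GFP+ 2 and 41.6% in Epcam+ 1, where the level without it was 0.793 and 4.13 CPM.

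Ctse was highest in pit cells and lowest in the main chief cluster. Pit cells held 991 ± 246 CPM (SD, n = 4), with 1322 and 1031 CPM in GFP+ and 786 and 824 CPM in Epcam+. Parietal cells (579 ± 10.0 CPM), isthmus cluster 4 (520 ± 45.1 CPM) and isthmus cluster 3 (428 ± 1.85 CPM) came next (n = 2 each), and none of these ranges overlapped its neighbour. Neck cells had 155 ± 61.1 CPM (n = 4), with 108 and 99.3 CPM in GFP+ and 186 and 225 CPM in Epcam+. The level in chief cluster 5 was 68.9 ± 30.7 CPM, with 29.1 and 61.5 CPM in GFP+ and 98.8 and 86.2 CPM in Epcam+. The GFP+ 2 value was mostly 1 cell, which held 65.7% of the UMIs, and stood at 25.0 CPM without it. Cluster 6 (22.7 ± 19.9 CPM), cluster 7 (6.26 ± 7.78 CPM) and chief cluster 1 (1.54 ± 0.551 CPM) closed the order, and each overlapped the next. With the 3 chief genes taken out of the total, Ctse came to 184 CPM for neck cells, 160 CPM for cluster 5, 8.68 CPM for cluster 1 and 8.59 CPM for cluster 7, so the last 2 changed places. In cluster 1 the level was 1.28 and 0.941 CPM in GFP+ and 1.75 and 2.21 CPM in Epcam+, and in cluster 7 of GFP+ 1 a count of 0 UMIs allows up to 4.54 CPM.

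Shares of cells with at least 1 UMI were compared after each cell was thinned to 16880 UMIs, which left out 445 shallower cells. Pgc was found in 100% of the thinned cells of every cluster, endocrine cells included, so its detection told no cluster apart. Pga5 was found in 98.6% of neck cells (95% Wilson interval 97.6 to 99.1%), 71.3% of isthmus cluster 3, 70.0% of parietal cells, 63.9% of chief cluster 5, 58.9% of isthmus cluster 4 and 40.3% of pit cells. In chief cluster 1 the share was 4.77% (3.55 to 6.39%), against 9.35% (5.55 to 15.3%) in endocrine cluster 6, which should lack pepsinogen. Before thinning, cluster 1 had 17.0% at a median of 125624 UMIs per cell, against 11.2% in cluster 6 at 19705 UMIs. Ctse was found in 100% of parietal cells, 99.9% of pit cells, 96.0% and 94.9% of isthmus clusters 4 and 3, 78.1% of neck cells and 38.5% of chief cluster 5. In chief cluster 1 it was found in 2.84% (1.93 to 4.16%) of cells, against 8.63% (5.01 to 14.5%) in cluster 6, and before thinning in 13.8% of both. Thinning on all UMIs leaves cluster 1 few UMIs of other genes, since Pgc, Clps and Pla2g1b take most of them. Cells were therefore also thinned to 12773 UMIs outside these 3 genes, a choice made after seeing the data. Pga5 was then found in 9.59% (7.70 to 11.9%) of cluster 1 and 7.53% (4.54 to 12.2%) of cluster 6, and Ctse in 9.20% (7.36 to 11.4%) of cluster 1 and 11.3% (7.5 to 16.6%) of cluster 6. The intervals of the 2 clusters overlapped, so the 2 clusters were not told apart by either gene at this depth. Neck cells kept 98.2% for Pga5 and pit cells 99.3% for Ctse. These intervals cover counting error only.

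The place of each gene's transcripts in the whole epithelium followed from these levels and the cells sampled. Cluster 1 held 76.2% and 90.3% of all Pgc UMIs in GFP+ and 60.2% and 66.6% in Epcam+. Neck cells held 74.4% and 82.6% of the Pga5 UMIs in GFP+ and 68.7% and 63.8% in Epcam+. Pit cells held 69.9% and 63.7% of the Ctse UMIs in GFP+ and 49.7% and 53.5% in Epcam+. Over whole libraries Pgc amounted to 175360 and 182224 CPM in GFP+ and 98956 and 95043 CPM in Epcam+, whereas Ctse amounted to 153 and 59.4 CPM in GFP+ and 310 and 313 CPM in Epcam+. Pga5 did not separate the sorts, with 486 and 140 CPM in GFP+ and 521 and 297 CPM in Epcam+. The sorts differ in their shares of clusters, so whole-library levels mix cell type shares with levels in a cell type.

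**Figure D2:**
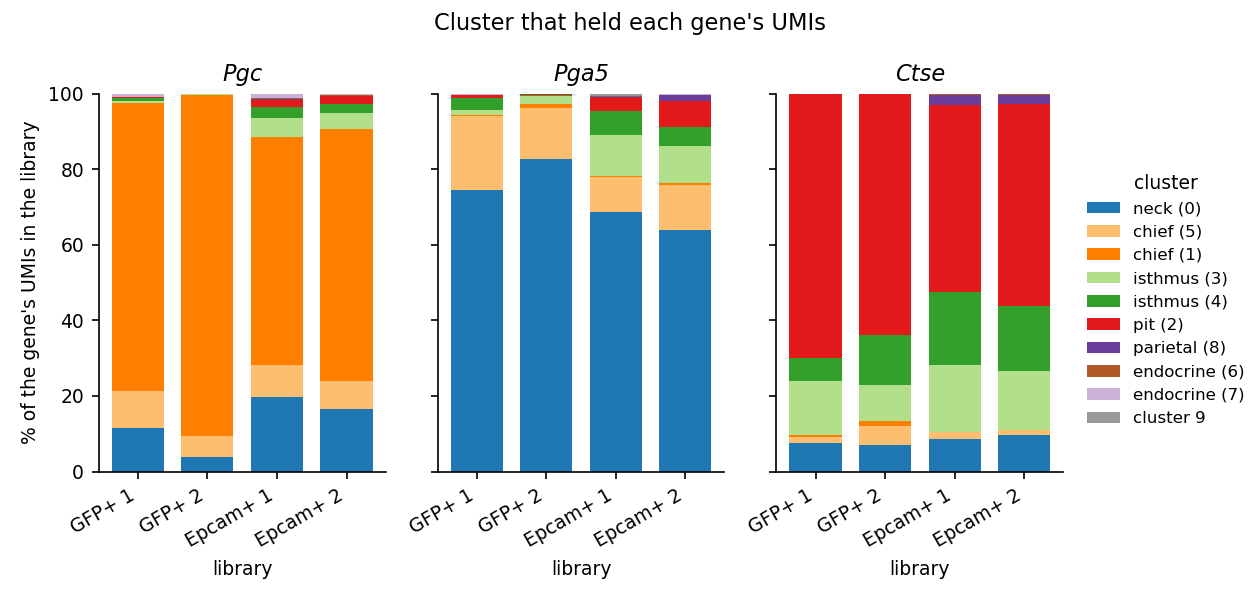
Share of each gene's UMIs (percent, stacked to 100%) held by each cluster, 1 bar per library, GFP+ libraries left of Epcam+ libraries. Cluster 1 holds most Pgc (60.2 to 90.3%), cluster 0 most Pga5 (63.8 to 82.6%) and cluster 2 the largest share of Ctse (49.7 to 69.9%).

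Pgc was set against Clps, the colipase that chief cells secrete, since transcripts leaking from one source would be expected to keep its ratio. This was assumed and not tested. Neck cells had 14.5 and 13.4 Pgc UMIs per Clps UMI in GFP+, and 23.1 and 17.6 in Epcam+. Chief cluster 1 had 0.618 and 0.544 in GFP+, and 0.521 and 0.458 in Epcam+. The neck ratio therefore lay far above that of the main chief cluster in all 4 libraries, and at the cluster 1 ratio the Clps UMIs of neck cells went with 4.27% of their Pgc UMIs in GFP+ 1. Chief cluster 5 had 0.912 and 0.769 in GFP+ and 0.688 and 0.683 in Epcam+, above cluster 1 in each library. Endocrine cluster 6 had the lowest ratios, 0.106 and 0.0413 in GFP+ and 0.197 and 0.138 in Epcam+, and cluster 7 (0.642 in GFP+ 1, 0.587 and 0.576 in Epcam+) was close to chief cells. At the cluster 1 ratio, the Clps UMIs of cluster 6 went with 585% and 1316% of its Pgc UMIs in GFP+. In Epcam+ the shares were 264% and 331%, so the source ratio did not hold in cluster 6 and such shares are rough. Pit cells had 3.17 and 3.18 in GFP+ and 13.5 and 10.3 in Epcam+, so this ratio did not overlap between the sorts. Isthmus cluster 3 (15.1 and 11.1) and parietal cells (22.0 and 14.0) had ratios near those of neck cells, and isthmus cluster 4 differed between its Epcam+ libraries (4.96 and 25.0). At the neck ratio of Pgc to Muc6, Muc6 UMIs went with 47.7% and 56.9% of the Pgc UMIs of cluster 3 in Epcam+. For cluster 4 these shares were 34.1% and 53.2%. They were lower for parietal cells, at 23.0% and 19.2% in Epcam+. For pit cells they were 5.5% and 1.6% in GFP+ and 23.4% and 24.8% in Epcam+.

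**Figure D3:**
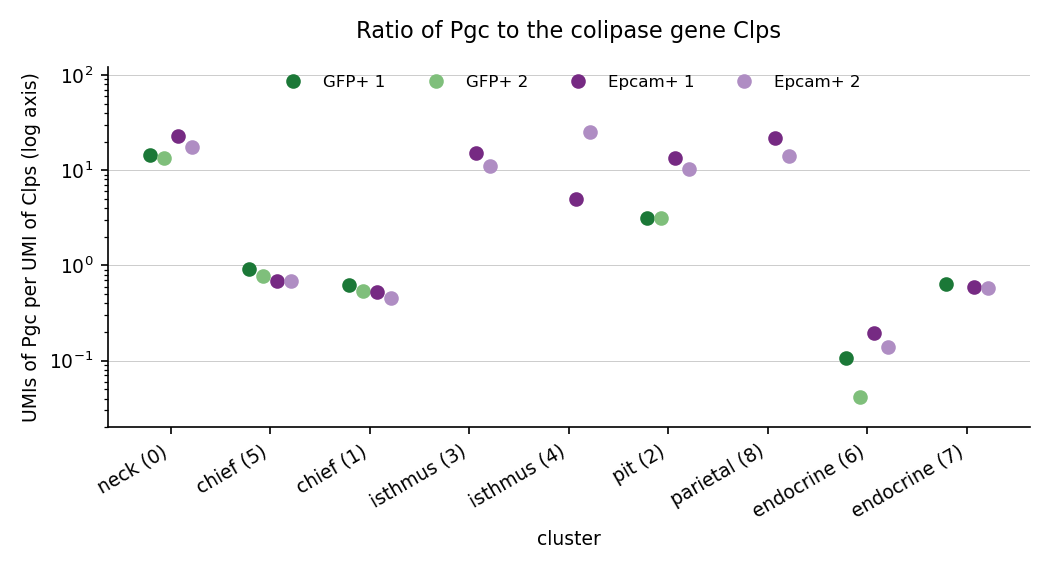
Pgc UMIs per Clps UMI (log axis) in each cluster, 1 point per library, GFP+ libraries left of Epcam+ libraries. Neck cells lie between 13.4 and 23.1, chief clusters 1 and 5 between 0.458 and 0.912 and endocrine cluster 6 at 0.197 or less.

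The same measure was applied to the other 2 genes. In neck cells, Pga5 UMIs per Muc6 UMI were 0.408 and 0.509 in GFP+ and 0.406 and 0.397 in Epcam+, while the Pga5 level itself spanned 1410 to 3421 CPM. In chief cluster 5 the ratio was 0.711 and 0.425 in GFP+ and 0.931 and 0.907 in Epcam+. At the neck ratio of the same library, the Muc6 UMIs of cluster 1 went with 90.7% and 69.9% of its Pga5 UMIs in GFP+. The shares were 71.2% and 40.9% in its Epcam+ libraries. In Epcam+ they were 76.5% and 96.8% for isthmus cluster 3, 56.5% and 91.1% for isthmus cluster 4 and 46.8% and 29.0% for pit cells. The part of carried-over transcripts in these levels was not tested. Ctse was set against Gkn1, the gastrokine of pit cells. At the ratio of pit cells in the same library, the Gkn1 UMIs of neck cells went with 0.824% and 0.319% of the neck Ctse UMIs in GFP+ and 0.945% and 0.893% in Epcam+. For chief cluster 5 these shares were 151% and 9.34% in GFP+ and 67.1% and 69.3% in Epcam+, and for chief cluster 1 they were 40.3% and 25.2% in GFP+ and 46.6% and 49.5% in Epcam+. In the Epcam+ libraries they were 50.1% and 69.0% for isthmus cluster 3 and 42.3% and 56.0% for isthmus cluster 4. At the pit ratio, pit transcripts thus went with at most 0.945% of neck Ctse and with 67.1% or more of cluster 5 Ctse in 3 of 4 libraries.

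GFP+ and Epcam+ libraries were compared within the 5 clusters that held at least 20 cells in each library. In each of these clusters both GFP+ libraries were deeper per cell (median UMIs) than both Epcam+ libraries. The part of depth in the differences was not tested. UMIs were summed per library and tested with edgeR, and the CPM of these comparisons are TMM-scaled. In neck cells, Ctse was lower in GFP+ than in Epcam+. It had 115 and 102 CPM in GFP+ against 182 and 211 CPM in Epcam+, groups that did not overlap (log2 fold change -0.85, SE 0.12, edgeR adjusted p = 0.0492). This was 1 of 3 members called lower, beside 0.0709% of the 11287 genes tested (0.0886% were called higher). The call was lost without Epcam+ replicate 1 (-0.96, edgeR adjusted p = 0.0581) and without Epcam+ replicate 2 (-0.74, 0.402), fits in which the lone Epcam+ library is assumed to vary like the GFP+ libraries. Pit cell markers moved with it, at a summed 571 and 449 CPM in GFP+ and 894 and 917 CPM in Epcam+ (7 of 8 measured markers with UMIs in GFP+ 1), and Gkn1 itself was lower (-1.65, edgeR adjusted p = 0.0335). The part of pit cell markers in the Ctse difference was not tested.

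Neck cells had 203524 and 173766 CPM of Pgc in GFP+ and 131878 and 109986 CPM in Epcam+, which did not overlap but did not pass either (0.64, SE 0.11, edgeR adjusted p = 0.134). Pga5 had 3633 and 2786 CPM in GFP+ and 2412 and 1321 CPM in Epcam+ (0.78, SE 0.25, edgeR adjusted p = 0.339). Of the other chief cell products, 3 of 11 tested rose in these neck cells and none fell, against 10 and 8 of all 11287 genes. They were Clps (1.18, edgeR adjusted p = 0.00605), Cblif, the gastric intrinsic factor (1.11, 0.0135), and Pla2g1b (0.83, 0.0143). Summed chief cell markers stood at 25833 and 26171 CPM in GFP+ and 13852 and 14479 CPM in Epcam+ (all 7 with UMIs), and their part in the Pgc difference was not tested. Without TMM factors the median gene shifted by -0.12 on the log2 scale and the split of higher and lower calls was 4 and 11.

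**Figure D4:**
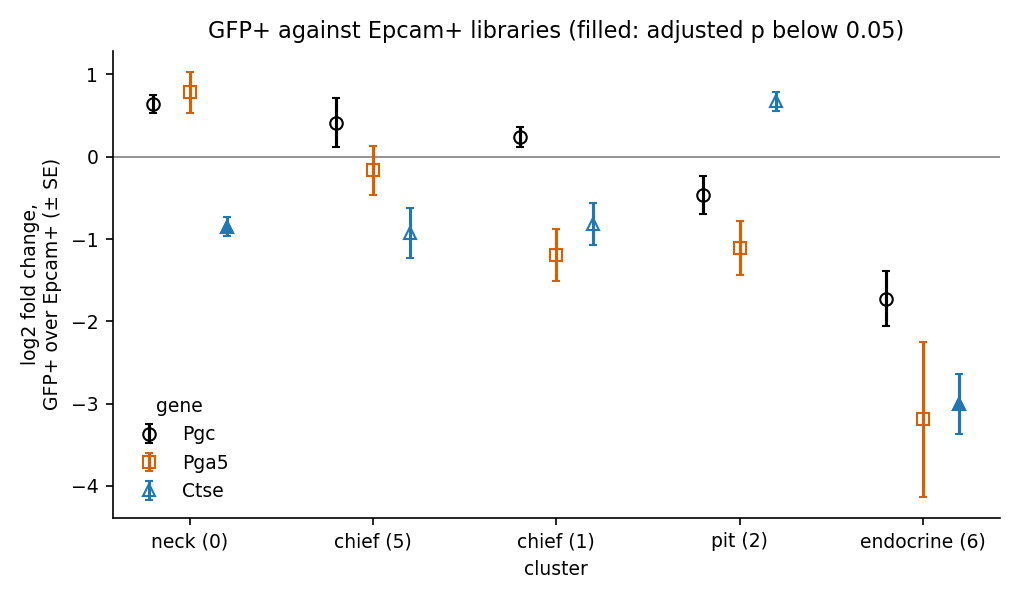
Log2 fold change of GFP+ over Epcam+ with its standard error (edgeR, 2 libraries per sort) for Pgc, Pga5 and Ctse in 5 clusters, filled where the adjusted p was under 0.05. Ctse is lower in GFP+ neck cells (-0.85) and endocrine cells (-3.01) and no other point is filled.

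In pit cells 0 of the 3 genes passed by edgeR, where 0.364% of 10983 genes did (0.209% higher), while 2 of the 3 had an unadjusted p under 0.05. Ctse had 1350 and 1104 CPM in GFP+ and 748 and 792 CPM in Epcam+ (0.67, SE 0.11, edgeR adjusted p = 0.0698). Pgc had 8896 and 4898 CPM in GFP+ and 9590 and 9481 CPM in Epcam+ (-0.47, edgeR adjusted p = 0.366), and Pga5 60.2 and 18.6 CPM in GFP+ and 87.5 and 97.5 CPM in Epcam+ (-1.11, 0.181). Of the pit cell markers 2 of 8 rose, Psca (0.86, edgeR adjusted p = 0.0244) and Tff1, a trefoil peptide (0.83, 0.0428). GFP+ pit cells were few, 42 and 27 cells, and without TMM factors the median gene shifted by -0.13 and the calls split into 7 higher and 17 lower, against 23 and 17.

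Neither chief cluster gave an edgeR call among the 3 genes, of which 2 in cluster 1 and 1 in cluster 5 had an unadjusted p under 0.05. In cluster 1, where 0.0887% of 10146 genes passed (0.0394% higher and 0.0493% lower), Pgc had 221425 and 202936 CPM in GFP+ and 193119 and 165175 CPM in Epcam+ (0.24, SE 0.12, edgeR adjusted p = 0.662). Pga5 and Ctse were low there (-1.19 and -0.82, edgeR adjusted p = 0.394 and 0.463), while 2 of 7 pit cell markers fell, Gkn1 (-1.40, edgeR adjusted p = 0.0348) and Gkn2 (-1.43, 0.0348). Summed pit cell markers stood at 4401 and 5052 CPM in GFP+ and 4199 and 4910 CPM in Epcam+ (7 of 8 measured with UMIs), and their part in the Ctse value was not tested. Gkn1 made up 12.4 and 12.3 CPM of this sum in GFP+ and 25.7 and 42.3 CPM in Epcam+. Other listed genes thus carried most of the sum, and it does not follow Gkn1. In cluster 5, where 0.309% of 9074 genes passed (0.0441% higher and 0.264% lower), Pgc had 191793 and 230071 CPM in GFP+ and 163105 and 153409 CPM in Epcam+ (0.41, SE 0.30, edgeR adjusted p = 0.743). Pga5 overlapped between the sorts (-0.17, edgeR adjusted p = 0.925), and Ctse had 27.3 and 70.3 CPM in GFP+ and 98.0 and 81.1 CPM in Epcam+ (-0.93, edgeR adjusted p = 0.370). Pit cell markers moved with Ctse there, at a summed 5180 and 4682 CPM in GFP+ and 10842 and 10470 CPM in Epcam+ (7 of 8 measured with UMIs). Of these 2 of 7 fell, Muc5ac (-1.82, edgeR adjusted p = 0.00145) and Tff1 (-1.27, 0.0212), and their part was not tested.

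In endocrine cluster 6, Ctse was lower in GFP+, with 3.84 and 7.09 CPM in GFP+ and 39.8 and 40.3 CPM in Epcam+ (-3.01, SE 0.37, edgeR adjusted p = 0.00359). It was 1 of 3 members called lower, beside 0.161% of 9960 genes, 0.221% being called in either direction. The counts behind it were 6 and 5 UMIs in GFP+ and 52 and 64 in Epcam+, and single cells held 83.3% and 60.0% of them in GFP+ and 36.5% and 34.4% in Epcam+. The call was lost without called doublets (-3.43, edgeR adjusted p = 0.0832) and without GFP+ replicate 1 (-2.48, 0.0783). Pgc had 2217 and 725 CPM in GFP+ and 5533 and 4296 CPM in Epcam+ (-1.72, SE 0.33, edgeR adjusted p = 0.0693), and Pga5 had 6.40 and 0 CPM in GFP+ and 74.9 and 8.82 CPM in Epcam+ (-3.19, 0.382). Single cells held 45.3% and 8.41% of the Pgc UMIs in GFP+ and 70.9% and 44.4% in Epcam+. Without the highest cell of each library, and without TMM factors, Pgc stood at 1220 and 703 CPM in GFP+. In Epcam+ it then stood at 1649 and 2475 CPM. Genes of other cell types moved the same way. Among pit cell markers 3 of 7 fell, Gkn2 (-2.38, edgeR adjusted p = 0.00359), Psca (-1.60, 0.0272) and Tff1 (-3.63, 0.0321), and summed pit markers were 212 and 152 CPM in GFP+ and 1578 and 551 CPM in Epcam+. The neck peptide Tff2 (-2.90, edgeR adjusted p = 9.09e-05) and Clps (-0.62, 0.0438) fell too, and their part in the Ctse difference was not tested.

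Whether the GFP+ effect differed between cell types was tested as an interaction against chief cluster 1, with the library as a block. For neck cells, 2 of 3 members passed, beside 0.113% of 12340 genes. The GFP+ effect on Pga5 was higher in neck cells by 1.96 (log2, SE 0.15, edgeR adjusted p = 1.2e-05), with cluster 1 resting on 49 and 83 Pga5 UMIs in GFP+ and 161 and 101 in Epcam+ (62.7% of the GFP+ 2 UMIs in 1 cell), and that on Pgc by 0.42 (SE 0.06, 0.00401). The Pgc difference did not pass without TMM factors (0.33, edgeR adjusted p = 0.185) or when any 1 library was left out (0.35 to 0.47, 0.0989 to 0.234). For pit cells, 1 of 3 passed beside 0.286% of 12230 genes, namely Ctse, higher by 1.48 (SE 0.20, edgeR adjusted p = 0.00714). Cluster 1 rested here on 28 and 37 Ctse UMIs in GFP+ and 40 and 64 in Epcam+, with 32.1% of those of GFP+ 1 in 1 cell. These cluster 1 counts also stand behind the Ctse differences of the other clusters. In endocrine cluster 6 a single cell held 45.3% and 8.41% of the Pgc UMIs in GFP+ and 70.9% and 44.4% in Epcam+. For this cluster, 2 of 3 passed beside 0.379% of 12660 genes (0.348% lower and 0.0316% higher). They were Pgc (-2.19, SE 0.30, edgeR adjusted p = 6.13e-05) and Ctse (-2.28, SE 0.52, 0.0344), and the Ctse difference was lost without called doublets (-2.72, edgeR adjusted p = 0.154), without GFP+ replicate 1 (-1.52, 0.631) and without Epcam+ replicate 1 (-2.14, 0.0981). For chief cluster 5, 0 of 3 passed, beside 0.0173% of 11566 genes, with 0.20 for Pgc, 0.85 for Pga5 and 0.01 for Ctse (edgeR adjusted p = 0.980, 0.820 and 1), and Pga5 alone had an unadjusted p under 0.05.

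Neck cells varied widely in Pga5, and the cells with the most and the least of it were compared to see what else differed. The neck cells of each library were ranked by Pga5 CPM, with Pgc, Clps and Pla2g1b left out of the total, and divided into 3 equal ranges, of which the highest (high cells) was set against the lowest (low cells), with 38, 22, 147 and 165 cells in each of the 2 ranges in GFP+ 1, GFP+ 2, Epcam+ 1 and Epcam+ 2. Such a range is not a cell type. Median Pga5 on this measure was 8038, 5100, 4632 and 2958 in high cells of GFP+ 1, GFP+ 2, Epcam+ 1 and Epcam+ 2, against 807, 612, 481 and 341 in low cells. The lowest high cells stood at 3828, 2319, 2691 and 1527, and the highest low cells at 1461, 942, 892 and 639 in the same libraries. Over all UMIs depth was close, at medians of 34587, 31743, 23961 and 20370 UMIs in high cells and 33269, 32712, 26543 and 22129 in low cells. Outside Pgc, Clps and Pla2g1b the medians were 27160, 24772.5, 19564 and 16845 UMIs in high cells. Low cells had 27830.5, 26011.5, 23632 and 20054, so high cells were shallower on this measure in all 4 libraries.

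Both other members passed between high and low neck cells, where 4.89% of 10123 genes did. Pgc was higher, with 251673, 174266, 168659 and 143439 CPM in high cells against 147266, 180999, 95749 and 78897 CPM in low cells (0.60, SE 0.11, edgeR adjusted p = 0.00336). GFP+ 2 ran the other way, so 3 of 4 libraries were higher. The Pgc call was lost without Epcam+ replicate 1 (0.53, edgeR adjusted p = 0.112), without Epcam+ replicate 2 (0.52, 0.0943) and with no library block (0.56, 0.362). Ctse was lower in 4 of 4 libraries, with 74.6, 90.4, 117 and 163 CPM in high cells against 155, 109, 245 and 275 CPM in low cells (-0.86, SE 0.10, edgeR adjusted p = 4.58e-05), and it did not pass with no library block (-0.81, edgeR adjusted p = 0.173). Over single neck cells, Spearman's rho between Pgc and Pga5 was 0.491 and -0.040 in GFP+ and 0.544 and 0.533 in Epcam+, and between Pgc and Ctse -0.383 and -0.429 in GFP+ and -0.486 in both Epcam+ libraries. These coefficients describe cells that share a library, and their n was 116 and 68 cells in GFP+ and 441 and 496 in Epcam+.

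High-Pga5 neck cells carried more transcripts of several neck and chief cell products. Among neck cell markers 3 of 7 rose, Gkn3 (1.17, edgeR adjusted p = 5.07e-06), Muc6 (0.96, 2.05e-05) and the water channel Aqp5 (0.35, 0.0168), while Bpifb1 (-1.05, 0.00582) and Wfdc2 (-0.62, 0.0071) fell. Muc6 had 10850, 6195, 8278 and 4491 CPM in high cells against 5080, 4754, 3582 and 2069 CPM in low cells. Of the other chief cell products 5 of 10 rose and 1 fell, against 1.97% of all genes rising and 2.92% falling. Cblif (1.37, edgeR adjusted p = 0.000423), the lipase-related Pnliprp2 (1.06, 1.74e-05), Clps (0.98, 0.0224), Pla2g1b (0.74, 0.00149) and the proprotein convertase Furin (0.69, 0.00105) rose, and the elastase Cela1 (-0.50, 0.0153) fell. Clps was higher in 3 of 4 libraries and did not pass in 5 of 14 alternatives, among them without Epcam+ replicate 1 (0.69, edgeR adjusted p = 0.312) and without Epcam+ replicate 2 (0.65, 0.287). It had 14866, 16900, 9638 and 12224 CPM in high cells against 16341, 13907, 2715 and 3160 CPM in low cells. Cblif had 2305, 2695, 1649 and 1688 CPM in high cells against 1807, 1426, 395 and 389 CPM in low cells. Of the secretory machinery 3 of 13 rose, Copz2 (0.67, edgeR adjusted p = 0.00158), the goblet and neck cell factor Spdef (0.47, 0.00226) and the unfolded protein response factor Xbp1 (0.28, 0.046), and Xbp1 did not pass under 10 of 14 alternatives.

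Markers of pit and dividing cells were among the genes that fell with high Pga5. Pit cell markers fell in 4 of 7, namely Krt19 (-1.16, edgeR adjusted p = 1.41e-07), Muc5ac (-2.36, 0.000141), Tff1 (-1.05, 0.00112) and Psca (-0.79, 0.0207), although Gkn1 (0.03, 0.963) and Gkn2 (0.03, 0.945) did not pass. Proliferation markers fell in 3 of 7, Mki67 (-3.27, edgeR adjusted p = 1.93e-05), Stmn1 (-2.12, 4.58e-05) and Hmgb2 (-0.67, 0.000614). Stmn1 averaged 13.5 CPM in high cells against 46.4 CPM in low cells, but was higher in high cells of 1 of 4 libraries. Mki67 had 0, 4.52, 1.47 and 3.11 CPM in high cells against 36.3, 6.40, 19.98 and 20.4 CPM in low cells. Among genes with a mean of at least 50 CPM and 1 direction in all 4 libraries, the largest falls were Lgals2 (-2.53), Mucl3 (-2.09), Gsdma2 (-1.94), Gm26917 (-1.56), Plac8 (-1.47), Mgst3 (-1.18), Krt19 and Spink4 (-1.15), of which Gm26917 did not pass after thinning (-0.26, edgeR adjusted p = 0.586), and Lgals2, a galectin, had 41.6, 42.2, 73.1 and 135 CPM in high cells against 267, 256, 541 and 587 CPM in low cells. The largest rises by the same rule were Cdkn1c, an inhibitor of cyclin-dependent kinases (1.55), Cblif, Gkn3, Pnliprp2, Thbs1 (1.03), Muc6, Klk1 (0.89) and Cpn1 (0.74). Cdkn1c had 245, 178, 167 and 95.3 CPM in high cells against 103, 92.8, 40.9 and 31.6 CPM in low cells. Without TMM factors the median gene shifted by -0.11 and the calls split into 109 higher and 584 lower, against 199 and 296, with the direction of Pgc and Ctse unchanged.

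**Figure D5:**
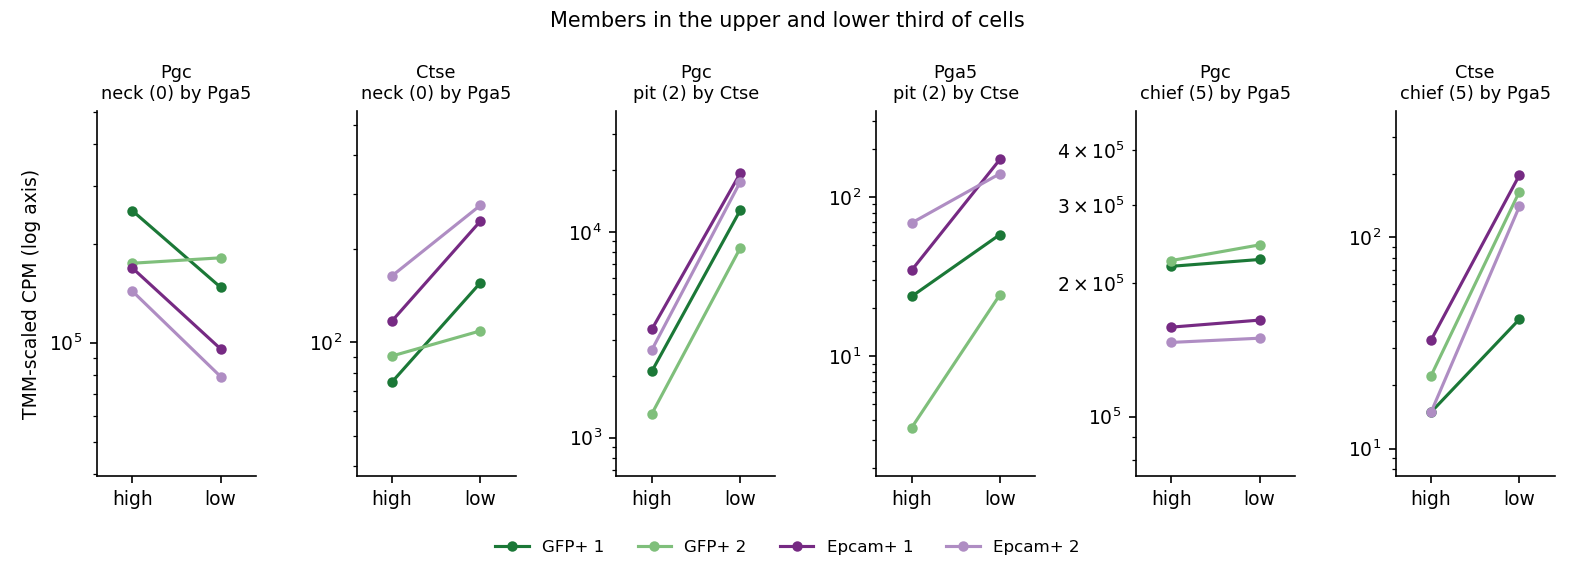
TMM-scaled CPM of the members that were not used to rank the cells, in high and low cells of the neck cluster by Pga5, of pit cells by Ctse and of chief cluster 5 by Pga5, high left of low, with a line per library. In pit cells Pgc is lower in high cells of all 4 libraries (1306 to 3363 against 8351 to 19297 CPM), and in neck cells Pgc is higher in 3 of 4.

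Pit cells were divided by Ctse in the same way. Median Ctse CPM outside the 3 chief genes was 1945, 1438, 1128 and 1170 in high cells against 615, 613, 337 and 385 in low cells, in the library order used above. The lowest high cells stood at 1624, 1101, 839 and 867 and the highest low cells at 909, 664, 505 and 542. High cells were deeper, with medians of 71732, 72878, 45587 and 38978 UMIs against 59574, 55286, 35138 and 31731 in low cells. This comparison moved many genes, with 27.8% of 9863 called, so a call alone sets a gene little apart. Both pepsinogens were lower in high-Ctse pit cells. Pgc had 2102, 1306, 3363 and 2670 CPM in high cells against 12751, 8351, 19297 and 17510 CPM in low cells, without overlap (-2.63, SE 0.09, edgeR adjusted p = 4.85e-13). Pga5 had 23.8, 3.56, 34.7 and 68.8 CPM in high cells against 58.2, 24.4, 172 and 140 CPM in low cells (-1.61, SE 0.18, edgeR adjusted p = 2.41e-06). Spearman's rho between Pgc and Ctse over single pit cells was -0.639 and -0.606 in GFP+ (42 and 27 cells) and -0.695 and -0.683 in Epcam+ (363 and 452 cells).

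Among pit cell markers, 7 of 8 rose with Ctse and none fell, against 14.6% of all genes rising and 13.2% falling. Examples were Gkn1 (1.95, edgeR adjusted p = 9.94e-06), Tff1 (1.48, 3.22e-06), Krt19 (1.30, 3.06e-07) and Muc5ac (0.87, 0.000402). Gkn1 had 44131, 69348, 38744 and 49388 CPM in high cells against 18424, 38797, 4337 and 8396 CPM in low cells. Neck cell markers fell in 4 of 6, namely Muc6 (-3.40, edgeR adjusted p = 9.52e-09), Aqp5 (-1.05, 0.0173), Wfdc2 (-0.91, 4.93e-05) and Tff2 (-0.69, 0.000182), while Gkn3 rose (1.38, 0.00445). Muc6 had 6.49, 1.78, 12.1 and 17.9 CPM in high cells against 22.0, 4.06, 250 and 111 CPM in low cells. Clps, by contrast, had 1197, 1678, 807 and 949 CPM in high cells and 1274, 1491, 667 and 895 CPM in low cells (0.11, edgeR adjusted p = 0.385), so Pgc fell where Clps did not pass. Pla2g1b fell in this comparison (-0.56, edgeR adjusted p = 0.000456) but stood at 0.16 after thinning.

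Other named genes of the pit comparison belonged to several functions. By the same rule (a mean of at least 50 CPM and 1 direction in all 4 libraries) the largest rises were Capn9, a stomach calpain (4.48), Cdkn1a, the cell cycle inhibitor p21 (4.22), 2210407C18Rik (3.90), Lypd8 (3.49), Smim24 (3.46), Phgr1 (3.41), the iodide transporter Slc5a5 (3.23) and Akr1b8 (2.92). Cdkn1a had 451, 251, 169 and 145 CPM in high cells against 22.0, 30.5, 8.20 and 6.61 CPM in low cells. The largest falls by that rule, besides both pepsinogens and Muc6, were Ppp2r1b (-2.46), Emp1 (-2.43), Slc1a3 (-2.37), the progenitor factor Sox4 (-1.88) and Cnn3 (-1.77). Of the secretory machinery 3 of 12 rose and 4 fell, Spdef among those that fell (-1.34, edgeR adjusted p = 8.87e-07). Proliferation markers fell in 2 of 8, Stmn1 (-0.90, edgeR adjusted p = 9.99e-05) and Hmgb2 (-0.54, 0.00122), while Mki67 (-0.38, 0.138) did not pass. Without TMM factors the median gene shifted by -0.23 and the calls split into 881 higher and 2841 lower, against 1438 and 1300.

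Chief cluster 5 was divided by Pga5, since its cells ranged from no Pga5 UMI to 3.72% of all UMIs. Median Pga5 outside the 3 chief genes was 4633, 2500, 2877 and 3827 CPM in high cells against 28.2, 0, 0 and 0 in low cells, and 8 of 20, 10 of 13, 24 of 28 and 24 of 30 low cells had no Pga5 UMI. The lowest high cells stood at 1531, 979, 747 and 1182 and the highest low cells at 85.3, 112, 59.7 and 87.6. High cells were shallower, with medians of 31649, 38674, 24121 and 19114 UMIs against 41072, 39332, 43319 and 38958 UMIs in low cells. The median mitochondrial share was higher in high cells of all 4 libraries, at 2.95%, 2.56%, 4.68% and 3.99% against 2.03%, 2.13%, 2.21% and 2.46% in low cells, and the part of either in the results was not tested. Outside the 3 chief genes the medians were 18413, 18413, 15959 and 11895 UMIs in high cells against 27252, 22075, 15604 and 16963 UMIs in low cells, so high cells were shallower there in 3 of 4 libraries. Pgc did not pass, with 218506, 225130, 159270 and 147111 CPM in high cells against 226406, 244284, 165207 and 150374 CPM in low cells (-0.06, SE 0.13, edgeR adjusted p = 0.856), and its sign turned in 4 of the alternatives. Ctse was lower, with 14.9, 22.1, 32.6 and 14.9 CPM in high cells against 41.0, 165, 197 and 140 CPM in low cells (-2.61, SE 0.23, edgeR adjusted p = 7.59e-07), 1 of 2 members tested, where 5.91% of 5952 genes passed. Without called doublets the difference was -1.56 (edgeR adjusted p = 0.016). Doublets numbered 4, 0, 2 and 1 in high cells and 3, 2, 2 and 7 in low cells.

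Pit transcripts moved with Ctse in cluster 5. Pit cell markers fell in 6 of 7 tested, with Tff1 at 38.4, 24.0, 57.1 and 109 CPM in high cells against 4386, 4998, 11075 and 7704 CPM in low cells (-6.99, edgeR adjusted p = 1.44e-11). Without called doublets Tff1 (-3.85, edgeR adjusted p = 0.117), Gkn1 (-3.87, 0.0595) and Gkn2 (-3.58, 0.0637) did not pass, and Muc5ac did (-3.72, 0.00185). Other cell-type genes followed, as proliferation markers fell in 5 of 5 tested, against 3.73% of all genes falling. Of these, Hmgb2 (-1.57) did not pass under 6 alternatives and Pcna (-1.12) under 5. Hmgb2 was also higher in high cells of 1 of 4 libraries. The part of pit transcripts in the Ctse difference was not tested beyond the shares given above.

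Muc6 and the mucin enzyme A4gnt led the rises with Pga5 in cluster 5 among genes with a mean of at least 50 CPM and 1 direction in all 4 libraries. In this comparison 2 of 6 neck cell markers rose and Tff2 fell (-1.55). Muc6 had 2121, 2436, 2175 and 1749 CPM in high cells against 639, 80.8, 280 and 218 CPM in low cells (3.06, edgeR adjusted p = 6.96e-06), and 2.84 without called doublets. A4gnt, the enzyme that caps neck mucin with N-acetylglucosamine, had 246, 207, 279 and 264 CPM in high cells against 117, 50.9, 81.2 and 60.2 CPM in low cells (1.73, edgeR adjusted p = 5.31e-06). The other large rises were Fam3c (1.51), Lrrc31 (1.41), Agr2, a disulfide isomerase of mucous cells (1.36), Tstd1 (1.30), the stress sensor of mucous epithelia Ern2 (1.28) and Spdef (1.27), and after thinning neither Ern2 (1.00, edgeR adjusted p = 0.0527) nor Spdef (0.72, 0.165) passed. The largest falls by the same rule were 2210407C18Rik (-7.92), Gsta1 (-7.15), Tff1, Gkn1, Gkn2, Muc5ac, S100a6 (-5.68) and Mucl3 (-5.60).

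Chief cell products other than pepsinogen ran against Pga5 in cluster 5. Of these 7 of 11 tested fell and none rose, against 3.73% of all genes falling and 2.18% rising. The chitinase Chia1 (-4.85, edgeR adjusted p = 4.05e-06), the trypsinogen Try10 (-2.47, 0.000805), Pla2g1b (-1.63, 3.4e-06) and Clps (-1.09, 6.9e-05) were among them. Clps had 154976, 205432, 131509 and 114122 CPM in high cells against 320705, 387771, 290839 and 270067 CPM in low cells, and did not pass after thinning (-0.78, edgeR adjusted p = 0.0735). The chief cell factor Bhlha15 fell as well (-1.38, edgeR adjusted p = 0.0032). Scaling weighed on this comparison, since without TMM factors the median gene shifted by 0.53 and the calls split into 2215 higher and 124 lower, against 130 and 222. Ctse, Muc6, A4gnt, Clps and Pla2g1b kept their direction there.

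The wider protease families showed that the pattern of the 3 genes was not shared by all relatives. Of 17 listed aspartic proteases 15 were in the files. Ctsd, the lysosomal cathepsin D, varied less, from 26.0 ± 1.12 CPM in chief cluster 1 to 349 ± 45.1 CPM in parietal cells. Bace2, a membrane aspartic protease, was low in chief cluster 1 as well (3.61 ± 1.31 CPM), and was similar in neck cells (292 ± 53.9 CPM), isthmus cluster 3 (290 ± 25.5 CPM) and pit cells (253 ± 24.5 CPM). Cym, the milk-clotting chymosin, averaged 53.8 CPM in neck cells, but 2310 of its UMIs came from Epcam+ 1 and 99.8% of these from 1 cell, with 0, 0 and 1 UMIs in GFP+ 1, GFP+ 2 and Epcam+ 2. Among the cysteine cathepsins, Ctsl stood out in endocrine cluster 6 (980 ± 176 CPM) against 110 ± 19.8 CPM in neck cells and 37.0 ± 3.60 CPM in chief cluster 1. These family levels are CPM of all UMIs, of which Pgc, Clps and Pla2g1b took most in cluster 1. That lowers the level of every other gene there. Its part in the low cluster 1 values of Ctsd, Bace2 and Ctsl was not tested, so their order against other clusters stays undecided. Between high and low neck cells 1 of 11 other cathepsins rose and 1 fell, where 1.97% of all genes rose and 2.92% fell. Between high and low pit cells 2 of 10 rose and 3 fell, where 14.6% of all genes rose and 13.2% fell. Between high and low cells of cluster 5, 0 of 10 rose and 1 fell by edgeR, the protease inhibitor Cst3 (-0.77, edgeR adjusted p = 0.004), where 2.18% of all genes rose and 3.73% fell. Between GFP+ and Epcam+, edgeR called 0 of 10 to 12 other cathepsins and 0 of 13 to 14 genes of the secretory machinery in each of the 5 clusters, with 0 to 2 and 0 to 5 of them at an unadjusted p under 0.05.

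The genes whose level followed each member most closely over 29 sums of library and cluster were ranked among 11300 genes by Pearson's r of log2(CPM + 1), as a description of sums that share libraries. Pgc went with Pdia2, a disulfide isomerase of secretory cells (0.934), Gpx8 (0.892), Phgdh (0.886), Ly6e (0.881) and Pnliprp2 (0.876). Pga5 went with Cfi, complement factor I (0.968), A4gnt (0.957), D630039A03Rik (0.938), Wfdc2 (0.937) and Cd24a (0.934). Ctse went with Dbi (0.970), Hs3st3b1 (0.964), Mgst3 (0.961), Ak3 (0.961) and Ptgr1 (0.958). A4gnt, highest in neck cells (528 CPM) and next in cluster 5 (143 CPM), kept the order of Pga5 at the top, and Mgst3, a glutathione transferase, was highest in pit cells (2808 CPM) like Ctse. Other matches peaked elsewhere than their member. Dbi was highest in isthmus cluster 4 (1373 CPM, pit cells 1152 CPM) and Gpx8 in neck cells (38.1 CPM, cluster 1 16.3 CPM). The sums are CPM of all UMIs, of which Pgc, Clps and Pla2g1b took most in cluster 1, and the part of this in the ranking was not tested. Among themselves the members were far less alike, at 0.418 for Pgc and Pga5, -0.293 for Pgc and Ctse and 0.529 for Pga5 and Ctse.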

How the data were processed

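The deposited values are counts of UMIs per gene and cell, which the authors made with Cell Ranger 3.0.2 on mm10 from droplet 3′ libraries, and the cluster of each cell comes from their Seurat analysis. The authors had filtered cells on mitochondrial share, gene number and counts of Ptprc and Pecam1. Cells were used as deposited, and Scrublet in scanpy 1.11.5 (Python 3.11.15) called doublets, which were removed only in an alternative. UMIs were summed per cluster and library and tested in R 4.3.3 by the quasi-likelihood test of edgeR 4.0.16, after its filter on low counts and TMM scaling, with Benjamini-Hochberg adjustment over all genes and a threshold of 0.05. DESeq2 1.42.0 was an alternative. Comparisons of high and low cells, and of GFP+ effects between clusters, had the library as a block. Depth was 35571141 to 79455225 UMIs per library. Named genes were the 3 members in every comparison, the 5 genes most like each member, and, between high and low cells, the 8 largest rises and the 8 largest falls past the threshold with a mean of at least 50 CPM and 1 direction in all 4 libraries, beside genes of the lists. The 3 members and all gene lists were chosen with earlier results of these data known. Thinning to a fixed number of UMIs outside Pgc, Clps and Pla2g1b was added after seeing the data. The edgeR scripts were tested on simulated counts. Sequences and positions came from GRCm38 with GENCODE vM21, and coding sequences were aligned with biopython 1.88. Cluster 9, with under 20 cells in every library, was left out of levels and tests.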

Additional observations from a re-analysis of the deposited data

Results flagged for a closer look

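Differences of the GFP+ effect between a cluster and chief cluster 1 passed the test for 5 values, each a log2 difference with the library as a block. In neck cells the GFP+ effect was higher by 0.4154 for Pgc (0.64 in neck cells and 0.24 in cluster 1) and by 1.9636 for Pga5 (0.78 and -1.19), with Pga5 low in cluster 1. The Pgc difference did not pass without TMM factors or with any 1 library left out, as given above. In pit cells the GFP+ effect was higher by 1.4809 for Ctse (0.67 in pit cells and -0.82 in cluster 1, where Ctse was low). In endocrine cluster 6 it was lower for Pgc, at -2.1941 (-1.72 and 0.24), and for Ctse, at -2.2785 (-3.01 and -0.82). Single cells there held 45.3% and 8.41% of the Pgc UMIs in GFP+ and 70.9% and 44.4% in Epcam+. The Ctse difference did not pass without called doublets and in other alternatives given above. Pit and neck markers were lower in GFP+ endocrine cells too, and their part in these values was not tested.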

How the results depend on the processing

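Each result was recomputed under the alternatives, and of the 165 recomputed GFP+ differences of the members 120 stayed on their side of the threshold, 40 newly passed, 4 no longer passed and 1 reversed. Of the differences of the GFP+ effect 71 stayed, 6 newly passed, 8 no longer passed and 11 reversed. Of the values between high and low cells 1107 stayed, 86 no longer passed and 6 reversed. Of the levels 191 stayed within the spread between libraries and 25 moved, 12 of them with Pgc, Clps and Pla2g1b taken out of the total, and of the shares of cells 37 stayed and 43 moved. Counts of genes past the threshold stayed in 42 cases and moved in 55. Depth limits Pga5 and Ctse in cluster 1 and Ctse in cluster 6, where a level rests on a few UMIs, and 2 libraries per sort limit every GFP+ comparison.

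In neck cells the GFP+ difference of Pgc passed with DESeq2 (0.64) and with no filter (0.62), and 38 genes passed with DESeq2 against 18. In cluster 1, with no filter, Pgc (0.24) and Pga5 (-1.20) passed, and 19 genes passed with DESeq2, 14 without TMM and 236 with no filter, against 9. In pit cells Pgc (-0.49), Pga5 (-1.13) and Ctse (0.65) passed with no filter and Ctse with DESeq2 (0.68), and 161 genes passed with DESeq2, 24 without TMM, 639 with no filter and 21 with totals without Pgc, Clps and Pla2g1b, against 40. In cluster 5 Pgc passed without TMM (0.31) and Ctse with no filter (-0.94), and 44 genes passed without TMM and 178 with no filter, against 28, while edgeR called 0 of 8359 genes without doublets, with 432 at an unadjusted p under 0.05. In cluster 6 Pgc passed without TMM (-1.72), with no filter (-1.72) and with totals without the 3 genes (-1.74), Pga5 passed with no filter (-3.18), and Ctse did not pass without doublets (-3.43). There 10 genes passed with DESeq2, 38 without TMM, 140 with no filter, 3 without doublets and 35 with totals without the 3 genes, against 22.

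The numbers 1 and 2 are shared between the sorts, and over genes the deviations of same-numbered libraries correlated at 0.317, 0.313, 0.303, -0.020 and 0.159 in clusters 0, 1, 2, 5 and 6. With 2 pairs and no label of a shared batch, the libraries share only a number. With the replicate block, neck Pgc (0.64) and Pga5 (0.83), cluster 1 Pgc (0.25) and Pga5 (-1.10), pit Ctse (0.67) and cluster 6 Pgc (-1.91) and Pga5 (-3.61) passed, and 651, 414, 222 and 96 genes passed in clusters 0, 1, 2 and 6.

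Differences of the GFP+ effect from cluster 1 changed for neck Pgc without TMM (0.33, no longer passing), and with no filter for pit Pgc (-0.76), cluster 5 Pga5 (0.83) and cluster 6 Pga5 (-1.92), which passed. Without doublets, pit Pga5 turned to 0.11, cluster 6 Ctse (-2.72) no longer passed and cluster 5 Ctse turned to -0.41. The last was also below 0 with RLE (-0.0045), without TMM (-0.13) and with no filter (-0.0058).

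Between high and low cells with no library block, neck Pgc (0.56) and Ctse (-0.81) did not pass. In neck cells 146 genes passed with DESeq2, 759 with no filter and 82 with no library block, against 495, and in pit cells 1375 with DESeq2 and 1505 with no library block, against 2738. Pit Pla2g1b turned to 0.16 after thinning, and pit Chga, at 2.09, ranged from -0.025 without Epcam+ replicate 1 to 2.61 without Epcam+ replicate 2. In cluster 5 Pgc turned to 0.47 without TMM, 0.11 with totals without the 3 genes, 0.0295 for the top and bottom of 4 ranges in place of 3 and 0.17 after thinning. There 129 genes passed with DESeq2, 2339 without TMM, 578 with no filter, 131 without doublets, 183 with no library block, 224 for 4 ranges and 74 after thinning, against 352.

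With 1 library left out, GFP+ differences of Pgc, Pga5 and Ctse ranged from 0.51 to 0.77, 0.41 to 1.28 and -0.96 to -0.74 in neck cells, with 7 to 275 genes passing. In cluster 1 they ranged from 0.14 to 0.36, -1.67 to -0.58 and -1.01 to -0.58, with 13 to 78 genes. In pit cells they ranged from -0.96 to -0.10, -2.32 to -0.62 and 0.52 to 0.81, with 114 to 156 genes. In cluster 5 they ranged from 0.30 to 0.54, -0.92 to 0.35 and -1.69 to -0.34, with 11 to 226 genes, and in cluster 6 from -2.76 to -1.15, -8.59 to -1.06 and -3.35 to -2.48, with 14 to 110 genes. Differences from cluster 1 ranged, in the same gene order, from 0.35 to 0.47, 1.82 to 2.14 and -0.19 to 0.0602 in neck cells, -1.13 to -0.36, -1.11 to 0.55 and 1.37 to 1.56 in pit cells, -0.013 to 0.38, 0.29 to 1.46 and -1.11 to 0.70 in cluster 5, and -2.97 to -1.45, -8.22 to -0.49 and -2.79 to -1.52 in cluster 6. Between high and low cells they ranged from 0.52 to 0.82 for Pgc and -0.92 to -0.74 for Ctse in neck cells (112 to 797 genes), -2.69 to -2.62 for Pgc and -2.15 to -1.21 for Pga5 in pit cells (1079 to 2901 genes), and -0.07 to -0.04 for Pgc and -2.85 to -2.41 for Ctse in cluster 5 (144 to 335 genes). The cause of these changes was not tested.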
